A study of Mus musculus with 6 samples.

Results

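The Cited genes encode small transcriptional coregulators, and 3 of them, Cited1, Cited2 and Cited4, were measured here by all 5 probe sets that the platform annotation gives to these symbols, out of 18193 genes and 34945 probe sets with 1 gene symbol. The tissue was the node with the primitive streak, a posterior strip of the embryo where mesoderm is formed and where the secreted ligand Wnt3a is made. It was dissected from Wnt3a null and from wild-type mouse embryos at embryonic days 7.75 to 8 (0 to 2 somites), all on a mixed C57BL/6 and 129/Sv background. There were 3 pools per genotype, and amplified RNA of 3 stage-matched embryos made 1 pool and 1 array, so 9 embryos stood behind each genotype. The 3 pools are called biological replicates in the labels. The null genotype is given without restriction to a cell type, and the part of Wnt3a that the allele alters is not given in the labels. The family was chosen with the null and wild-type signals already known, Cited1 having been among the genes with lower null signals. The differences between genotypes below are therefore descriptions, and no test on them is used as support.

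CITED proteins do not bind DNA themselves. A conserved acidic region at their C-terminal end binds the histone acetyltransferases CBP and p300, and through other partners they raise or dampen transcription at sites that DNA-binding factors occupy. Cited1 works with Smad4 and with the estrogen receptor, and in the mouse gastrula its transcripts mark nascent mesoderm. Cited2 works with TFAP2 factors and keeps the hypoxia factor HIF away from CBP and p300, and mice without it have heart, adrenal, neural tube and left-right defects. Cited4 also binds CBP, p300 and TFAP2 factors.

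The genes lie on 3 chromosomes of GRCm38.p6. Cited1 (older name Msg1) is at chrX:102247378-102252181 with 4 RefSeq transcripts, Cited2 (Mrg1) at chr10:17723228-17725674 with 1, and Cited4 (Mrg2) at chr4:120666563-120667820 with 1. The 250 bases before the most upstream RefSeq start of Cited1 and before the start of Cited2 are shown because every null pool lay below every wild-type pool for Cited1 and for the brighter Cited2 probe set, and Wnt signals act on DNA through TCF/LEF factors. They come from the RefSeq table of GRCm38.p6, read 5′ to 3′ on the strand of the gene (minus for Cited1, plus for Cited2). Capitals mark the TCF/LEF core CTTTG and the hypoxia response cores ACGTG and GCGTG, each on either strand.
Cited1, chrX:102252182-102252431: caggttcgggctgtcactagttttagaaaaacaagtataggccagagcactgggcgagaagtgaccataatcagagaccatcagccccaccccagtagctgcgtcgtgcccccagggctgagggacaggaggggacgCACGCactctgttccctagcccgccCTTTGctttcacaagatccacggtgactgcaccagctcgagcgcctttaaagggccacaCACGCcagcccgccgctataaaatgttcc
Cited2, chr10:17722978-17723227: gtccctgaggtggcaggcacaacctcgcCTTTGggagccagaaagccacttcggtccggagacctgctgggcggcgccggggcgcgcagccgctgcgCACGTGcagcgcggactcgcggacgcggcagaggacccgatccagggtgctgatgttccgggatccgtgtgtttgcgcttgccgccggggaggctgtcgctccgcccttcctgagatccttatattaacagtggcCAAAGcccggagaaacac

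The longer TCF/LEF form, CTTTG with A or T at each of the next 2 positions, was found on neither strand in either window, nor before the start of Cited4 or the other 2 listed starts of Cited1. It occurs in 14.8% of all 32851 windows of this length. The shorter core CTTTG, which is contained in the longer form, was found once before Cited1, 88 bases from the start, and at 2 positions each before Cited2 and Cited4, against 48.6% of all windows with at least 1 match. Hypoxia response cores were found before all 3 genes and in 38.6% of all windows. In Cited2 the palindrome CACGTG, 153 bases before the start, counts once on each strand. The T-box half-site AGGTGT, present in 11.8% of windows, was not found in these 5 windows. A letter match is not a binding site, and the absence of one in these windows says nothing of sites elsewhere.

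Cited1 had the widest relative gap between genotypes among the 3 probe sets of the family above the median signal. Its only annotated probe set gave signals of 354, 527 and 503 in null replicates 1, 2 and 3, against 915, 1260.2 and 1005 in wild-type replicates 1, 2 and 3. The highest null pool lay well below the lowest wild-type pool. The mean signal was 461 ± 93.4 (SD, n = 3) in the null and 1060.0 ± 179 (SD, n = 3) in the wild type, which on the log2 scale is a difference of -1.21 with a standard error of 0.26, or a 2.31-fold lower signal. By replicate number the log2 differences were -1.37, -1.26 and -0.998. Replicate 1 was the lowest and replicate 2 the highest pool in both genotypes, so that the differences by number were closer to each other than the pools of one genotype were. Among the 22518 probe sets above the median signal, 43 had a lower log2 difference, as Cited1 ranked 44 from the bottom. The central 95% of the 2252 probe sets in its bin of signal ran from -0.40 to 0.50.

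**Figure D1:**
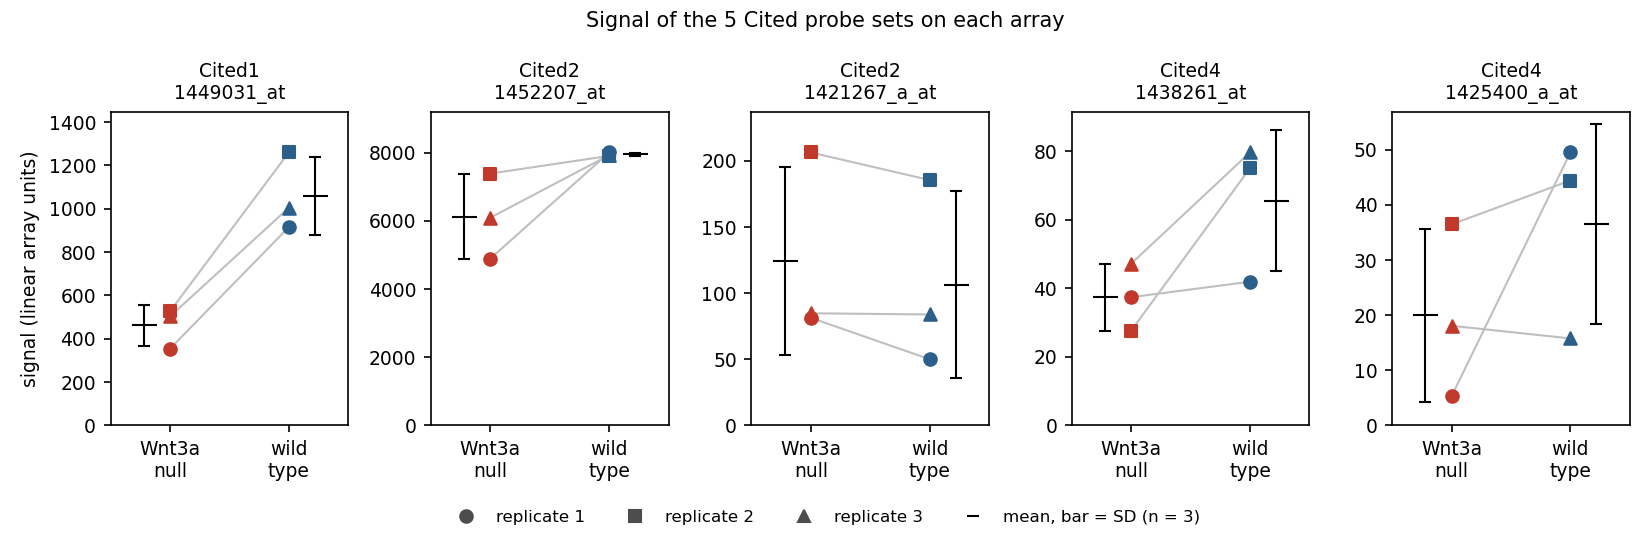
Linear signal of each Cited probe set (y axis, array units, each panel from 0) in Wnt3a null pools (red, left) and wild-type pools (blue, right); grey lines join pools of one replicate number, and black bars show mean and SD of 3 pools. Cited1 and the brighter Cited2 probe set have no null pool as high as any wild-type pool, and the other 3 probe sets overlap.

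Cited2, the CBP and p300 partner that competes with HIF, was measured by a very bright and by a dimmer probe set, and these did not show the same picture. The bright one stood at the 97.6th percentile of mean log2 signal over all probe sets. It gave 4895, 7389 and 6097 in null replicates 1, 2 and 3, against 8009, 7910 and 7930 in wild-type replicates 1, 2 and 3. The null pools were spread out below the wild-type pools, which were nearly equal: the highest over the lowest signal was 1.51 in null and 1.01 in wild-type pools. Its mean was 6127 ± 1247 (SD, n = 3) in the null and 7950 ± 52.5 (SD, n = 3) in the wild type, a log2 difference of -0.40 with a standard error of 0.23. By replicate number the log2 differences were -0.71, -0.10 and -0.38. Null replicate 1 weighed most: without it the log2 difference was -0.24, and without null replicate 2, the highest null pool, it was -0.54.

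The dimmer Cited2 probe set, at the 56.1th percentile of signal, gave 81.3, 206 and 84.8 in null replicates 1, 2 and 3, against 50.0, 186 and 83.9 in wild-type replicates 1, 2 and 3. Replicate 2 was the highest pool in both genotypes and replicate 1 the lowest, and the groups overlapped over most of their range. Its log2 difference was 0.29 with a standard error of 0.62, and of 0.23 with the replicate block. By replicate number the log2 differences were 0.70, 0.15 and 0.02, all above 0. Leaving out null replicate 2 or wild-type replicate 1 alone, so that a pool stood without its partner of the same number, gave -0.15 in either case. Over the 6 arrays its log2 signals correlated with those of the bright probe set at r = 0.18, given as a description of 6 points that share their arrays. The log2 difference between genotypes of the bright minus that of the dimmer probe set was -0.69. Which Cited2 transcripts each probe set reports was not resolved here, so a change of the gene as a whole cannot be read from the bright probe set alone.

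Cited4, the TFAP2 partner, was near the low end of the arrays with both probe sets, below the median signal of 71.5 on average. The brighter of them gave 37.4, 27.7 and 47.2 in null replicates 1, 2 and 3, against 41.9, 75.1 and 79.7 in wild-type replicates 1, 2 and 3. The ranges overlapped through wild-type replicate 1, and the log2 difference was -0.79 with a standard error of 0.36. By replicate number it was -0.16, -1.44 and -0.76. The dimmer one gave 5.28, 36.5 and 18.1 in null and 49.5, 44.4 and 15.8 in wild-type replicates 1, 2 and 3. Its null and wild-type pools were mixed, with a log2 difference of -1.11 and a standard error of 0.84, and -0.35 without null replicate 1. With 50 added to every signal before the logarithm, the log2 differences of the Cited4 probe sets were -0.39 and -0.31. Neither Cited4 probe set passed limma's test, which called 0 of all 45037 probe sets.

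**Figure D2:**
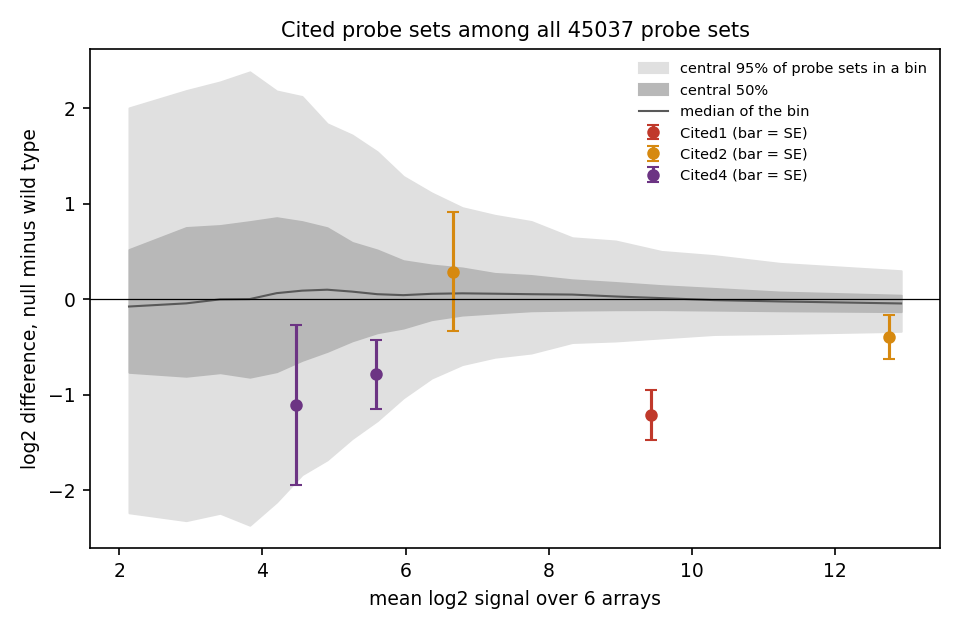
Log2 difference, null minus wild type (y axis), against mean log2 signal over 6 arrays (x axis); coloured points are the Cited probe sets with their standard errors, and grey bands hold the central 95% and 50% of all probe sets in each of 20 bins of signal. Cited1 at -1.21 lies far below its band and the bright Cited2 probe set at -0.40 just below its own, while both Cited4 probe sets and the dimmer Cited2 probe set lie inside.

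Seen over the family, 4 of the 5 probe sets had a lower mean log2 signal in null pools. Over all genes by brightest probe set, 8954 of 18193 did. The groups did not overlap, with null lower, for 2 of 5, as for 4.41% of all probe sets. All 3 differences by replicate number were below 0 for 3 of 5 (Cited1, the bright Cited2 probe set and the brighter Cited4 one), as for 13.7% of all probe sets, and above 0 for 1 of 5 (the dimmer Cited2 one), as for 15% of all probe sets. In limma's fit across 45037 probe sets 0 of 5 passed an adjusted p of 0.05, as did 0% of all, while 2273 probe sets (5.05%) had an unadjusted p under 0.05, Cited1 among them. With the replicate block and trend and robust options together 1 of the 5, Cited1, was lower (limma, adjusted p = 0.0216), as were 0.0311% of all probe sets. That value was 0.0572 without pair 1. Nothing is read from these counts, since Cited1 was picked on this contrast.

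The patterns of the 3 probe sets above the median signal were compared with 11151 other genes above that signal. Likeness was the root mean square difference between log2 profiles over the 6 arrays, each centred on its own mean, so a small value is close. The step between genotypes and the order of pools within a genotype are both part of each profile. Close genes therefore tend to share that direction and that order by construction, and neither is a separate result. For Cited1 the 10 closest genes lay at 0.124 to 0.275, and all 10 had lower mean log2 signals in null pools, with log2 differences from -1.26 to -0.75. The closest was Fgf9, a growth factor gene, with 52.1, 68.5 and 61.6 in null replicates 1, 2 and 3, against 104, 150.2 and 136 in wild-type replicates 1, 2 and 3. Its pools had the order seen for Cited1, with replicate 1 lowest and replicate 2 highest in each genotype. Next came Cdx1, a homeobox gene of the caudal family (likeness 0.203), with signals of 988 to 1066 in the null pools, against 2377 to 2505 in the wild-type pools. The others were Nr1h3, a nuclear receptor gene, Efna1, an ephrin ligand gene, Cfap20dc, Axin2, a feedback inhibitor of Wnt signalling (0.236), Myl2, a myosin light chain gene, 2510009E07Rik, Timd2 and Slc34a2, a phosphate transporter gene. The bright Cited2 probe set lay at 0.436 from Cited1, and 129 of the 11151 genes (1.16%) were closer. The brighter Cited4 probe set lay at 0.44, with 143 genes (1.28%) closer. The dimmer Cited2 and Cited4 probe sets lay at 0.927 and 0.83, with 90.75% and 82.5% of the genes closer.

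For the bright Cited2 probe set the 10 closest genes lay at 0.048 to 0.087. Again all 10 had lower mean log2 signals in null pools, from -0.46 to -0.27, a direction that the likeness measure selects for. They were Exosc1, a gene of the RNA exosome, Spata24, Ror2, a receptor of Wnt ligands, Limch1, 1810055G02Rik, Gm13238, Zmat3, a zinc finger gene, Vezf1, a zinc finger gene of vessels, D930003E18Rik and Creg1. Ror2 had 1833, 2462 and 2072 in null replicates 1, 2 and 3, against 2942, 2950.3 and 2819 in wild-type replicates 1, 2 and 3. Like Cited2, it had its lowest signal in null replicate 1 and nearly equal wild-type pools, which the likeness measure also selects for. From the side of Cited2, whose profile is shallow, 71.0% of the compared genes were closer than Cited1.

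**Figure D3:**
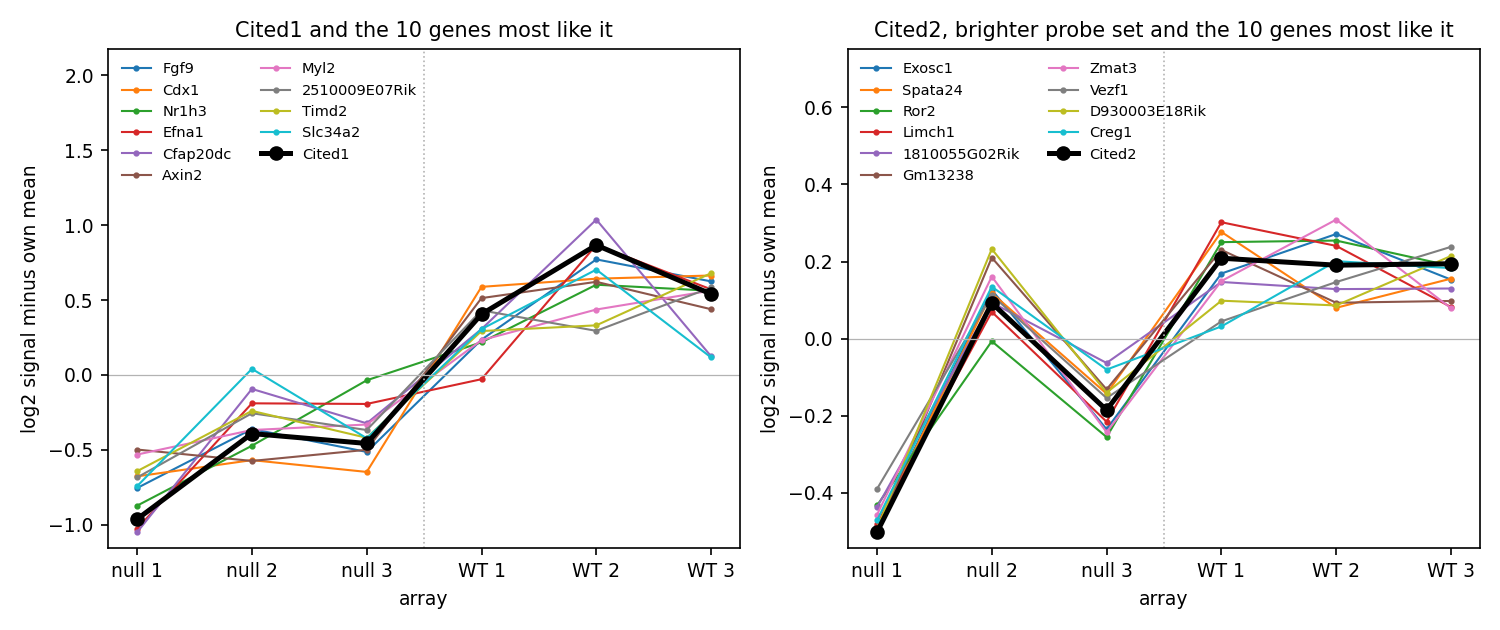
Log2 signal minus the gene's own mean (y axis) on each array (x axis, null pools left of the dotted line) for Cited1 (left panel, black) and the bright Cited2 probe set (right panel, black) with the 10 genes of the most similar profile in colour. Cited1 and its 10 neighbours step up between the null and the wild-type pools, while the Cited2 profiles dip in null replicates 1 and 3.

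Partner genes of the CITED proteins did not pass limma's test in either direction: 0 of 2 for CBP and p300, 0 of 17 transcription factors, 0 of 17 measured HIF target genes and 0 of 5 measured left-right genes, with 0% of 18193 genes called. At an unadjusted p under 0.05 there were 0, 1, 0 and 1, against 4.46% of all genes. Crebbp, which encodes CBP, had 3366, 3410.0 and 3384 in null and 3677, 3742 and 3467 in wild-type replicates 1, 2 and 3. Ep300, which encodes p300, had 1587, 1749 and 1662 in null and 1794, 2439 and 1511 in wild-type replicates 1, 2 and 3. The log2 differences were -0.10 for Crebbp and -0.17 for Ep300 and were smaller in size than their standard errors of 0.18 and 0.25. The Crebbp groups did not overlap.

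Of the 17 transcription factors that CITED proteins bind or work with, 12 were higher and 5 lower in mean log2 signal in null pools. Over all genes 9239 of 18193 were higher. The median log2 difference of the factors was 0.57, against 0.01 over all genes. That median was 0.37 without wild-type replicate 2 and 0.19 with 50 added to every signal before the logarithm. For the 11 factors above the median signal it was 0.10, against -0.00 over all genes above that signal. Smad4, through which Cited1 acts on TGF-beta targets, had 6776, 7554 and 7049 in null and 7545, 8115 and 7694 in wild-type replicates 1, 2 and 3, a log2 difference of -0.13. Hif1a, which encodes the HIF subunit that competes with Cited2, had 6823, 7476 and 7108 in null and 5967, 6845 and 7269 in wild-type replicates 1, 2 and 3, a log2 difference of 0.10. Both were bright and their groups overlapped. They were named for their roles after their values were seen.

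Other factors had higher null values without passing limma's test, which 0 of 18193 genes passed. Isl1, a homeobox gene of heart progenitors, had 592, 910.3 and 945 in null and 389, 545 and 516 in wild-type replicates 1, 2 and 3 (limma, adjusted p = 0.987). Epas1, which encodes another HIF subunit, had 5300.2 in null replicate 1, 940.3 and 1092 in null replicates 2 and 3, and 591, 805 and 669 in wild-type replicates 1, 2 and 3. Its null mean was thus made by 1 pool, although the groups did not overlap. Tfap2c, an AP-2 factor gene, had 2248, 3581 and 3548 in null and 2159, 1603 and 2532 in wild-type replicates 1, 2 and 3. Wt1, a zinc finger factor gene that acts with Cited2 in the adrenal, had 234, 104 and 99.8 in null and 101, 46.7 and 25.3 in wild-type replicates 1, 2 and 3. All 4 had higher values in null pools in mean, and those of Tfap2c and Wt1 overlapped.

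HIF target genes, which Cited2 restrains, were split: 9 of 17 measured members were higher and 8 lower in mean log2 signal, with a median log2 difference of 0.07, and 0.11 without null replicate 2. The groups did not overlap for 3 of 17, all higher in null. Over all genes this held for 1011 of 18193 with null higher, and for 10.1% in either direction. Adm, which encodes the vasoactive peptide adrenomedullin, had 6971, 4620 and 6989 in null and 3416, 669 and 3513 in wild-type replicates 1, 2 and 3. Ndrg1, a stress response gene, had 1684, 467 and 572 in null and 426, 324 and 339 in wild-type replicates 1, 2 and 3. Hk2, a hexokinase gene, had a log2 difference of 0.38, and Ankrd37 of 1.38 with overlapping groups. The glycolytic members Ldha and Pgk1, chosen after their values were seen, had log2 differences of -0.13 and -0.02. The list as a whole thus had no common direction.

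Among left-right genes, which are disturbed in mice without Cited2, 3 of 5 measured members were lower in mean log2 signal, as were 8954 of 18193 genes. Nodal, a ligand of the node and left side, had 281, 142 and 225 in null and 359, 330.2 and 747 in wild-type replicates 1, 2 and 3 (limma, adjusted p = 0.987). Lefty1 and Dand5, both Nodal antagonists, had log2 differences of -1.07 and -0.86 at low signals, and Lefty2 had 0.32. The median of the list was -0.86, the value of Dand5, and -0.39 with 50 added to every signal before the logarithm. For the 3 members above the median signal it was 0.01, the value of Cfc1. The median of the whole list was -0.49 and -0.01 without null replicates 1 and 2, and -0.31 and -0.18 without wild-type replicates 1 and 3. Gdf1 is not listed with a single symbol in the annotation and was not analysed here.

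**Figure D4:**
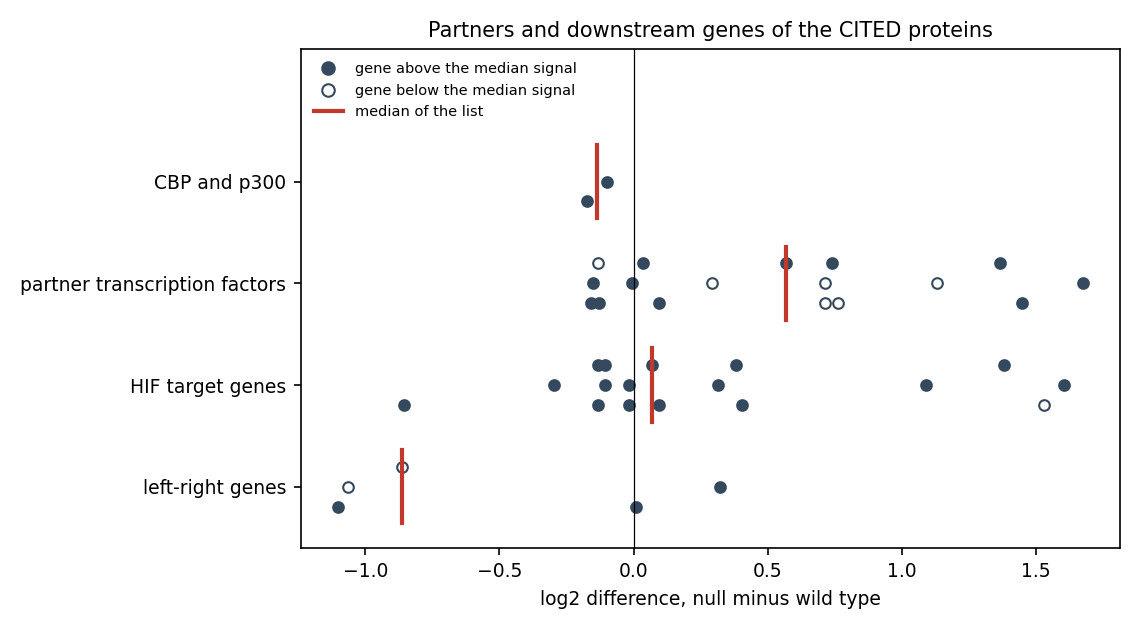
Log2 difference, null minus wild type (x axis), of each measured partner or downstream gene of the CITED proteins (points, filled above and open below the median signal), with the median of each list as a red line; points are offset vertically for legibility. CBP and p300 lie close to 0, and the HIF targets lie on both sides of 0. The 3 partner factors with the highest values are Esr1 at 1.67, Wt1 at 1.45 and Epas1 at 1.37. All of these lie above the median signal, Esr1 and Wt1 only just, at percentiles 51.3 and 52.3. The Esr1 groups overlap, and its standard error is 1.26.

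The labelled tissue and the cell types that express Cited genes were checked by their markers, since in bulk tissue fewer cells of a type and less RNA per cell cannot be told apart. Of the streak and node markers 10 of 11 were measured and 8 lay above the median signal, with Gsc and Foxj1 below it. In mean log2 signal 7 of the 10 were lower in null pools, against 8954 of 18193 genes. The other 3 markers were higher: Eomes by 0.20, Foxa2 by 0.32 and Gsc by 0.87. The median log2 difference was -0.40, and 0.09 without null replicate 2. Their summed signal was 2961 to 3824 in null pools, against 4810.1 to 6450.3 in wild-type pools, and these ranges did not overlap. In nascent and presomitic mesoderm, where Cited1 is known to be expressed, all 12 markers were measured above the median signal. In null pools 6 had lower mean log2 signals: Tbx6, Msgn1, Dll1, Dll3, Lfng and Hes7. The 6 with higher ones were Mesp1, Mesp2, Pcdh8, Meox1, Tcf15 and Ripply2. The even split does not show unchanged markers: 6 of 12 had an unadjusted p under 0.05 in limma's fit, against 4.46% of all genes. The groups did not overlap for 3 with null lower and 2 with null higher, against 829 and 1011 of 18193 genes. Tbx6, a T-box factor gene needed for paraxial fate, had 704, 652 and 612 in null and 1107, 1120.2 and 1069 in wild-type replicates 1, 2 and 3. Ripply2, a segmentation gene, went the other way, with 253, 393 and 332 in null and 74.3, 50.1 and 189 in wild-type replicates 1, 2 and 3. The summed signal of the mesoderm list was 9627 to 12108 in null pools, against 11910 to 12647 in wild-type pools, which overlapped. The part of these cell types in the Cited1 difference was not tested.

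Markers of other cell types mostly had higher sums in null pools, including the heart, where Cited2 is known to be expressed, and trophoblast, where Cited1 is. The summed signal of 9 measured heart markers was 1712 to 2367 in null pools, against 998 to 1214 in wild-type pools, mostly from Tbx20, and 7 of the 9 lay below the median signal. That of 8 visceral and yolk sac endoderm markers was 40963 to 58540 in null pools, against 34543 to 83848 in wild-type pools, and that of 6 trophoblast markers 1393 to 1857 in null pools, against 864 to 1412 in wild-type pools. Summed blood and endothelium markers (9 measured) gave 1036 to 1318 in null pools, against 595 to 1004 in wild-type pools, with Hba-x as low as 2.61, and summed neural plate markers (8 measured) 5214 to 6190 in null pools, against 3254 to 4038 in wild-type pools. The ranges did not overlap for heart, blood and endothelium, and neural plate. These sums lean on bright genes. Only 3 of 9 blood and endothelium, 4 of 8 neural plate and 3 of 6 trophoblast markers lay above the median signal, against 8 of 8 endoderm markers. In blood and endothelium the widest gap in mean signal was that of Kdr, 619 in null against 449 in wild-type pools. In neural plate it was that of Irx3, 2098 in null against 794 in wild-type pools. Gene by gene, the groups did not overlap for 1 of 9 heart, 1 of 9 blood and endothelium and 4 of 8 neural plate markers. All of these were higher in null, as were 1011 of 18193 genes. None of these markers was listed at 0, and their part in the Cited differences was not tested.

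The sex composition of the pools is given beside Cited1 because this gene is on chromosome X. Xist signals were 1871 and 2707 in null and 2054 and 2408 in wild-type replicates 2 and 3. Null replicate 1 had an Xist signal of 5047 with the Y-linked Eif2s3y at 1053. Wild-type replicate 1 had an Xist signal of 7440 and an Eif2s3y signal of 4.31, against 1053 to 1788 for Eif2s3y on the other 5 arrays. These 2 pools had the lowest Cited1 signals of their genotypes. The Cited1 log2 difference was -1.03 without null replicate 1 and -1.31 without wild-type replicate 1. The 3' to 5' signal ratio of Gapdh was 2.09 to 2.39 in null pools, against 2.51 to 3.00 in wild-type pools, which did not overlap. That of actin was 2.38 to 3.83 in null pools, against 2.68 to 3.69 in wild-type pools, which overlapped. Their part in these differences was not tested. Wnt3a itself had 961, 761 and 1009 in null and 864, 1058 and 996 in wild-type replicates 1, 2 and 3, which checks no label unless its probe set lies in the altered part.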

How the data were processed

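RNA of the node and primitive streak region from 6 pools of mouse embryos was hybridised to 1 Affymetrix mouse genome array each, per the labels' protocols. The deposited table holds 1 linear intensity per probe set and array. RMA, without a version, is named in the submitters' processing notes, but the deposited intensities are not on a log scale and their distributions differ between arrays, while every array has the same mean of 500 once 2% of values are trimmed from each tail. The exact step behind the values was not stated in the labels. Median intensities were 86.1, 78.8 and 77.7 in null replicates 1 to 3 and 73.6, 81.0 and 79.3 in wild-type replicates 1 to 3. No centring of genes is visible in the values. No detection calls were used here.

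The intensities were turned to log2 with no floor and no pseudocount, and the 64 control probe sets were left out. In R 4.3.3, limma 3.58.1 (lmFit, then eBayes with its default options) compared null with wild type for all 45037 other probe sets in a two-sided test. The p-values were adjusted by Benjamini-Hochberg across these probe sets, with a threshold of 0.05. A gene outside the Cited family stood for its brightest probe set (18193 genes). Of the 34945 probe sets with 1 gene symbol, 34741 matched RefSeq GRCm38.p6 by gene ID; 932 had several symbols and 9160 were not listed.

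The members and the gene lists were chosen with earlier results of these data known. Genes named by rule were all Cited probe sets, the 10 genes most like each Cited probe set above the median signal, and up to 4 genes of a list with the smallest p. Xist and Eif2s3y stood for the sex-linked list. Named outside this rule were Wnt3a, Smad4, Hif1a, Esr1, Ldha, Pgk1, Cfc1, Eomes, Foxa2, Foxj1 and Hba-x. The remaining mesoderm markers were named to give their direction. Deviations from the genotype means, over 18088 probe sets with a mean log2 above 7, correlated at 0.422, 0.454 and 0.282 between arrays of one replicate number, so the numbers were taken as pairs (bound 0.1). Over all probe sets the correlations were 0.0537, 0.0524 and 0.0338. What a number shares is not given in the labels. The alternatives were the replicate block, trend and robust options, both together, log2(signal + 50), median centring, quantile normalization, cyclic loess, array weights, a filter at the median signal, 1 probe set a gene, averaging the probe sets of each gene and leaving out each array. Leaving out pairs was added after seeing the data. The fits with default options and with trend and robust options were tested on simulated data with known changes: both returned the changes with little bias, but the default fit called none of them, so no calls in that fit does not show equal signals.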

Additional observations from a re-analysis of the deposited data

How the results depend on the processing

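The log2 differences of Cited1, of the bright Cited2 probe set and of both Cited4 probe sets kept their sign under all 14 alternatives that gave them a value, and those of Cited1 ran from -1.32 to -1.03, of the bright Cited2 probe set from -0.54 to -0.24. Those of Cited4 ran from -1.08 to -0.39 for the brighter and from -1.74 to -0.31 for the dimmer probe set. The dimmer Cited2 probe set ran from -0.15 to 0.80 and changed sign in 2 of 14, both of which left out 1 array of a pair, while its differences by replicate number were all above 0. Each of these stayed within 1 SD between replicates of the reported value, an SD that on the log2 scale was 0.76 in null and 0.95 in wild-type pools for the dimmer Cited2 probe set. The number of probe sets called by limma was 0 as reported, 0 with the replicate block alone, 1 with trend and robust options and 22 with the block and these options together, where 3 list genes (Dll1, Tbx20 and Irx3) were called as well. The cause was not tested. Leaving out each array left both counts at 0. The adjusted p of Cited1 in the fit with block, trend and robust options was 0.0572, 0.00611 and 0.0226 without pairs 1, 2 and 3, against 0.0216 with all pairs. Of 176 list medians under the alternatives 26 moved by more than the spread between pairs. Centring and normalization moved the median of all log2 differences by at most 0.05 in size. Both Cited4 probe sets lay below the median signal, and how far they stood above background was not analysed here.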

Other observations

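The dimmer Cited2 probe set followed replicate number more than genotype. Troap, a gene of the mitotic spindle, had the profile closest to it (likeness 0.163), with 131, 245 and 111 in null replicates 1, 2 and 3, against 73.9, 259 and 99.1 in wild-type replicates 1, 2 and 3. In both, replicate 2 stood highest in either genotype, an order that the likeness measure selects for. The 10 closest genes lay at 0.163 to 0.281 and their log2 differences between genotypes ran from -0.02 to 0.64.

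The other 2 RefSeq starts of Cited1 lie at positions 102251843 and 102250776 of chromosome X. The window before the second start held no CTTTG core and 1 hypoxia response core, and the window before the third held 3 CTTTG cores and no hypoxia response core. The windows before the 3 starts had GC contents of 58.0%, 57.2% and 65.2%, and that of Cited2 66.8%, against a median of 52.4% over all windows. Which of these starts is used in the node and primitive streak was not analysed here.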
